A study of Mus musculus with 6 samples.

Results

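The genes that carry a cell through mitosis were followed across 6 skin libraries of mice with an activated Braf allele. The set was fixed by symbol as 46 genes for entry into mitosis, the spindle, its checkpoint, the kinetochore, chromosome condensation and cell division, and all 46 were present among the 14484 genes of the deposited count table. The ATR mD/mD group (3 libraries) carried ATR fl/fl, Braf CA/+ and Cre, and part of the Atr kinase domain is deleted in it per the labels. The ATR WT group (3 libraries) carried ATR +/+ with the same Braf CA/+ and Cre. Both groups were on a C57BL/6-129J background, the tissue of both is given as skin, and the source name of the mutant libraries and the series design speak of nevi, benign growths of pigment cells. The labels name neither the promoter that drives Cre nor the age, the treatment or the time of sampling. The cells that lost the kinase domain are therefore not known from them, and the libraries are of bulk tissue. Whether each library is a different animal is not stated, and the p-values below then describe only how far these libraries spread, which may be technical.

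Mitotic genes are transcribed late in the cell cycle, shortly before a cell divides, and their messenger RNA is low in resting cells. Many of them are silenced in resting cells by the DREAM complex and switched on by B-Myb and Foxm1 through a short promoter element, the cell cycle genes homology region (CHR), often near CCAAT boxes that bind the factor NF-Y. In skin, dividing cells sit in the basal epidermis and, when a hair grows, in the matrix at the base of the follicle, one of the fastest dividing tissues of the body. Atr, the gene altered here, encodes a kinase that responds to stalled replication and delays entry into mitosis.

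The promoters of the set share these letters, which played no part in choosing the genes. RefSeq promoter sequences (GRCm38.p6, 250 bases before to 50 bases after the start given there) were found for 38 of the 46 genes, and Ect2 and Prc1 had 2 overlapping stretches each, of which either could hold a match. Both strands were searched for the CHR, as TTTGAA or TTCGAA, and for CCAAT. A CHR was present in 31 of the 38 promoters (81.6%), against 16.5% of the 10969 promoters of genes in the deposited table and 21.7% of all 27025 in the RefSeq table. CCAAT was present in 29 of 38 (76.3%), against 42.2% of the promoters of genes in the deposited table. Both were present in 27 of 38 (71.1%), against 6.79%. In 29 of the 31, the CHR nearest to the start began within 50 bases of it. Of 42 CHR matches at distinct positions, 1 shared a base with a CCAAT match. In 37 promoters of DNA replication genes, which act earlier in the cell cycle, 10 held a CHR (27.0%). In 20 promoters of hair shaft and inner root sheath genes, 9 did (45%). A match describes the letters of the promoter and is not evidence of a bound factor.

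The stretches below run 5′ to 3′ from 120 bases before to 20 bases after the start, with CHR and CCAAT matches of either strand in capitals. The first 5 belong to strongly measured genes of several roles whose level followed the hair level described below, and the last pair to genes that followed it least.
Cdk1: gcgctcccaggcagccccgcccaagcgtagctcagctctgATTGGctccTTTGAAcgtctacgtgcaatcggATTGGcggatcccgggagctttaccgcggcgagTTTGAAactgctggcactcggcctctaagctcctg
Cdc20: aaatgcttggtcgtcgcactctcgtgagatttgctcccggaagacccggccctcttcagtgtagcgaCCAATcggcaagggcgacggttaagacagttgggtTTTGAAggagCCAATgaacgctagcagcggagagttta
Kif11: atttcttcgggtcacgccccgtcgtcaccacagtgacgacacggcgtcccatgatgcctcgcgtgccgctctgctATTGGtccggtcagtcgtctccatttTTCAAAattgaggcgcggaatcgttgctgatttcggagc
Top2a: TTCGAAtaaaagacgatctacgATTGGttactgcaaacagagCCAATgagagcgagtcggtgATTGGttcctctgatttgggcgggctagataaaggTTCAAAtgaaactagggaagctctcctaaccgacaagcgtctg
Mki67: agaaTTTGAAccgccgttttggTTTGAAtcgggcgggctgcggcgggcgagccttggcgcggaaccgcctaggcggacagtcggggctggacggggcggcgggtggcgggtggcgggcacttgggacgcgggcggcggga
Cdc25b: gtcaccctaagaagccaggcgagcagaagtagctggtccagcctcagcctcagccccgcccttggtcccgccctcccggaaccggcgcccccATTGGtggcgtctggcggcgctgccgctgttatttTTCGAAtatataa
Ttk: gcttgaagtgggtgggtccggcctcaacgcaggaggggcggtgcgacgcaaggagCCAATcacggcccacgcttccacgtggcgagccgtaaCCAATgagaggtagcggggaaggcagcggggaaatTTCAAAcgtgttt
These stretches lie at chr10:69352893-69353032 on the minus strand for Cdk1, chr4:118437324-118437463 on the minus strand for Cdc20, chr19:37376262-37376401 on the plus strand for Kif11, chr11:99024170-99024309 on the minus strand for Top2a, chr7:135716360-135716499 on the minus strand for Mki67, chr2:131186828-131186967 on the plus strand for Cdc25b, and chr9:83834569-83834708 on the plus strand for Ttk. Cdk1, Cdc20, Kif11 and Top2a had a CHR 15, 18, 19 and 23 bases before the start, given by its base farthest upstream. Mki67 had both of its CHR matches farther from the start used here, at 116 and 98 bases before it. That start lies 71 bases downstream of the RefSeq gene start of Mki67, so the matches are nearer to the gene start. The start of Top2a lies 10 bases downstream of its own. Cdc25b and Ttk had a CHR too, from base 8 after the start, which lies 512 and 38 bases downstream of their RefSeq gene starts.

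The altered gene itself, Atr, was at 20.8, 22.2 and 24.8 CPM (read counts relative to library size, with TMM scaling) in ATR mD/mD 1, 2 and 3, against 17.6, 24.5 and 24.2 CPM in ATR WT 1, 2 and 3. These counts cover the whole gene, of which only part of the kinase domain is deleted, so they do not check the genotype labels. Gene counts summed to 34723600 to 38565590 per ATR mD/mD library and 39297160 to 46847751 per ATR WT library, and no member had fewer than 84 counts in any library or 1211 in all. The libraries differed in hair genes in a way that crossed genotype. The hair level, taken as the mean log2 CPM of 30 hair shaft and inner root sheath genes, was 0.02, 2.28 and 7.21 in ATR mD/mD 1, 2 and 3 and 2.04, 6.96 and 7.14 in ATR WT 1, 2 and 3. ATR mD/mD 3, ATR WT 2 and ATR WT 3 are called the libraries of high hair level, and ATR mD/mD 1, ATR mD/mD 2 and ATR WT 1 those of low hair level. Because this level was measured in the same libraries, differences by hair level are given as descriptions, with no test.

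Mitotic genes were high in the libraries of high hair level and low in the others, whatever the genotype. The 46 genes together took up 651, 588 and 1744 CPM in ATR mD/mD 1, 2 and 3 and 643, 1162 and 1025 CPM in ATR WT 1, 2 and 3. In 43 of 46 genes (93.5%), every library of high hair level lay above every library of low hair level, whereas 19.6% of all genes did so. The ratio of mean CPM between the libraries of high and low hair level had a median of 2.34 over the set and ran from 0.895 (Cdc25b) to 4.03 (Bub1). It was at least 2 in 33 of the 46 genes, against 5.38% of all genes. In these bulk libraries, more dividing cells and more mitotic RNA per cell cannot be told apart.

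**Figure D1:**
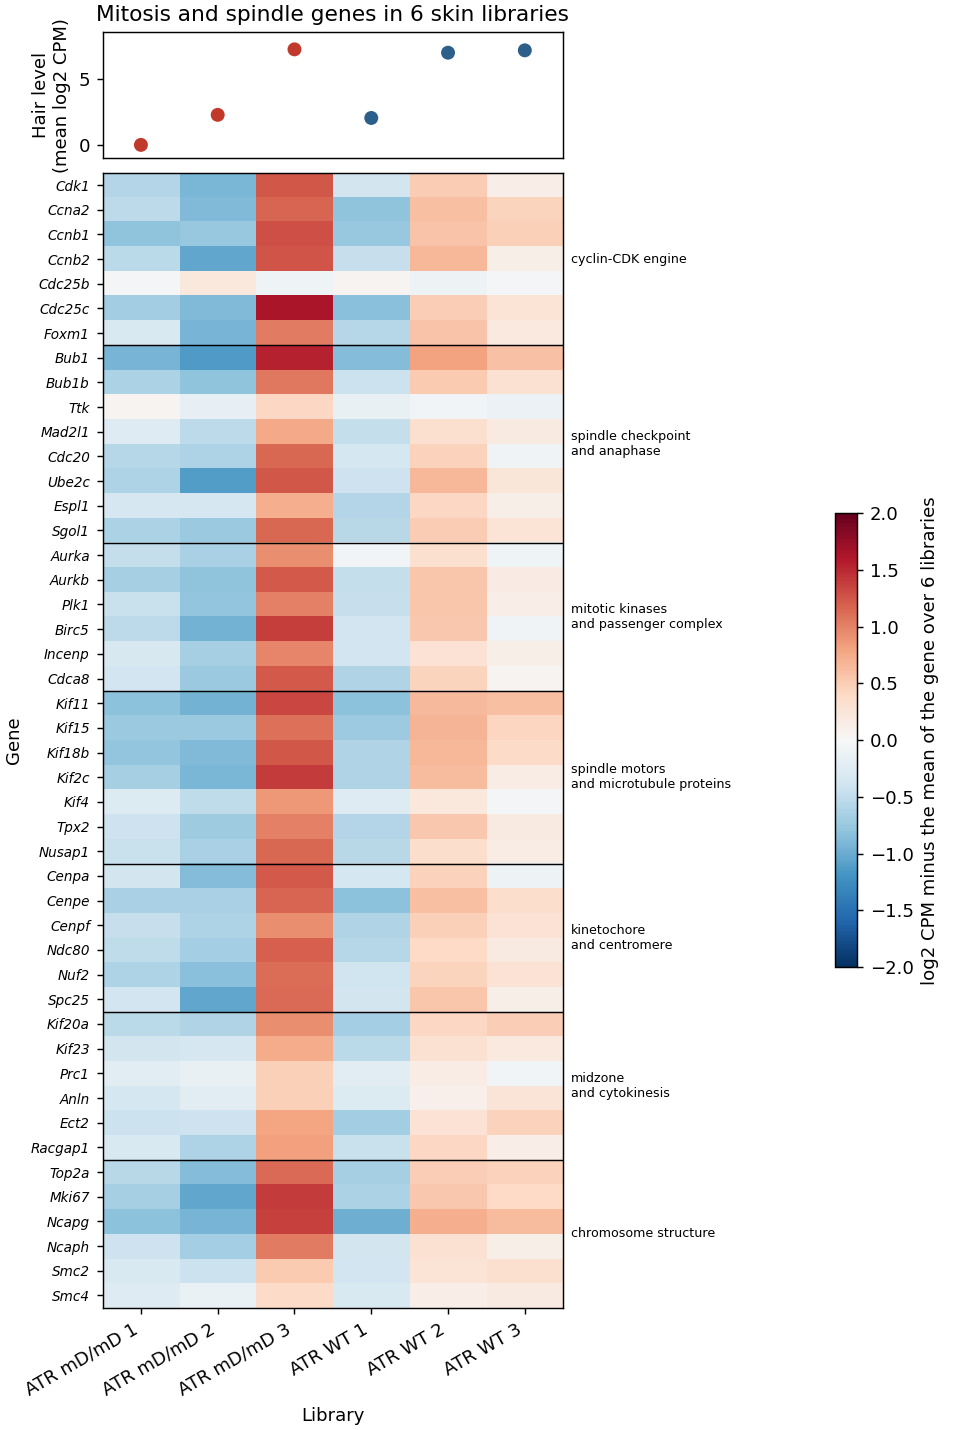
Heat map of the 46 mitosis and spindle genes (rows, grouped by role) in the 6 libraries (columns), coloured by log2 CPM minus the gene's mean over the libraries; points above give the hair level as mean log2 CPM of 30 hair genes (red, ATR mD/mD; blue, ATR WT). The columns of ATR mD/mD 3, ATR WT 2 and ATR WT 3, at hair levels of 7.21, 6.96 and 7.14, hold higher values than the other 3 for nearly all genes, with ATR mD/mD 3 the deepest red, and Cdc25b and Ttk stay pale throughout.

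The engine of mitotic entry is the kinase Cdk1 with cyclins A and B, switched on by Cdc25 phosphatases. Cdk1 (chr10:69335146-69352938, minus strand, mm10) was at 14.6, 11.6 and 51.8 CPM in ATR mD/mD 1, 2 and 3, against 16.9, 31.2 and 24.1 CPM in ATR WT 1, 2 and 3. Cdc25c (chr18:34732993-34751533, minus strand), a phosphatase that activates Cdk1, was at 2.57, 2.26 and 12.9 CPM, against 2.32, 5.84 and 5.01 CPM. In both genes the 3 libraries of low hair level lay close together and ATR mD/mD 3 lay above every other library. Cdc25b (chr2:131186949-131198497, plus strand), a phosphatase of the same family that starts the activation of Cdk1, was at 51.9, 60.9 and 49.9 CPM in ATR mD/mD 1, 2 and 3, against 54.9, 49.0 and 51.3 CPM in ATR WT 1, 2 and 3. It was the flattest gene of the set, with a ratio of highest to lowest library of 1.24, and the only one whose libraries of high hair level all lay below those of low hair level. The mitotic cyclins Ccna2, Ccnb1 and Ccnb2 and the transcription factor Foxm1 had ratios of mean CPM between high and low hair level of 2.83, 3.02, 2.66 and 2.33.

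The spindle checkpoint holds back chromosome separation until every kinetochore is attached, and Cdc20 and the ubiquitin-conjugating enzyme Ube2c then drive destruction of cyclin B and securin. Cdc20 (chr4:118432901-118437352, minus strand) was at 15.3, 14.9 and 50.7 CPM in ATR mD/mD 1, 2 and 3, against 17.9, 31.5 and 21.8 CPM in ATR WT 1, 2 and 3. Ube2c (chr2:164769898-164778822, plus strand) was at 10.95, 7.74 and 39.4 CPM, against 12.5, 26.6 and 19.9 CPM. In both genes the groups overlapped, with ATR mD/mD libraries at both ends. The checkpoint kinase gene Bub1 (chr2:127801122-127831865, minus strand) had the widest range of the set, with a ratio of highest to lowest library of 6.41. Its levels were 3.06, 2.64 and 16.9 CPM in ATR mD/mD 1, 2 and 3, against 3.17, 10.1 and 8.76 CPM in ATR WT 1, 2 and 3. Ttk (chr9:83834689-83872389, plus strand), which encodes the kinase that recruits checkpoint proteins to kinetochores, barely followed the hair level. It was at 18.9, 16.2 and 24.3 CPM in ATR mD/mD 1, 2 and 3, against 16.5, 17.5 and 16.8 CPM in ATR WT 1, 2 and 3. The other 4 genes of this class, Bub1b, Mad2l1, Espl1 and Sgol1, had ratios between high and low hair level of 1.81 to 2.52.

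Among the mitotic kinases and the chromosomal passenger complex, which corrects faulty attachments and later guides cell division, 5 of 6 genes separated by hair level. Incenp (chr19:9872296-9899551, minus strand), the scaffold of the complex, was at 21.99, 17.3 and 53.9 CPM in ATR mD/mD 1, 2 and 3, against 21.1, 33.6 and 29.8 CPM in ATR WT 1, 2 and 3. Birc5 (chr11:117849251-117855743, plus strand), which encodes survivin, was at 12.4, 9.24 and 46.7 CPM, against 13.6, 26.0 and 16.9 CPM. The exception was Aurka, the gene of the spindle pole kinase Aurora A, named after its values were seen. It was at 6.72, 5.97 and 17.8 CPM in ATR mD/mD 1, 2 and 3, against 8.96, 11.7 and 8.82 CPM in ATR WT 1, 2 and 3, so ATR WT 1 and ATR WT 3 were level. Aurkb, the kinase of the passenger complex, Plk1, another mitotic kinase, and Cdca8, a further subunit of the complex, had ratios of 2.56, 2.24 and 2.34.

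Spindle motors and microtubule proteins separated by hair level in 7 of 7 genes. Kif11 (chr19:37376403-37421859, plus strand), the motor that pushes the spindle poles apart, was at 10.4, 9.55 and 46.1 CPM in ATR mD/mD 1, 2 and 3, against 10.4, 28.8 and 27.9 CPM in ATR WT 1, 2 and 3. Tpx2 (chr2:152847964-152895321, plus strand), an activator of Aurora A on the spindle, was at 16.5, 13.4 and 43.9 CPM, against 14.6, 31.7 and 24.7 CPM. The ATR WT libraries of high hair level stood between the low libraries and ATR mD/mD 3 in both. Kif15, Kif18b, Kif2c, Kif4 and Nusap1 had ratios of 1.67 to 2.95.

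Kinetochore and centromere genes separated in 6 of 6. Cenpa (chr5:30666777-30674830, plus strand), the histone H3 variant that marks centromeres, was at 16.4, 11.6 and 49.7 CPM in ATR mD/mD 1, 2 and 3, against 16.5, 29.0 and 19.7 CPM in ATR WT 1, 2 and 3. Cenpf (chr1:189640606-189688086, minus strand), a large kinetochore protein, was at 12.6, 11.3 and 32.9 CPM, against 11.4, 23.99 and 21.1 CPM. Cenpe and the Ndc80 complex genes Ndc80, Nuf2 and Spc25 had ratios of 2.34 to 2.72.

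Genes of the spindle midzone and of cytokinesis also separated in 6 of 6, with smaller differences, and their median difference in log2 CPM between high and low hair level was 0.87, against 1.18 over the whole set. Prc1 (chr7:80294450-80316259, plus strand), which bundles midzone microtubules, was at 23.0, 23.99 and 36.8 CPM in ATR mD/mD 1, 2 and 3, against 22.9, 29.5 and 25.7 CPM in ATR WT 1, 2 and 3. Racgap1 (chr15:99620496-99651656, minus strand), which helps place the contractile ring, was at 20.05, 16.3 and 44.0 CPM, against 18.3, 33.0 and 27.3 CPM. Kif20a, Kif23, Anln and Ect2 had ratios of 1.48 to 2.37.

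Chromosome structure genes separated in 6 of 6. Mki67 (chr7:135689784-135716361, minus strand), which encodes the proliferation marker Ki-67, was at 56.5, 43.3 and 235 CPM in ATR mD/mD 1, 2 and 3, against 57.2, 129.6 and 118 CPM in ATR WT 1, 2 and 3. Top2a (chr11:98992943-99024189, minus strand), the topoisomerase that untangles sister chromatids, was at 44.6, 35.6 and 144 CPM, against 41.4, 91.7 and 89.4 CPM. The condensin genes differed among themselves. Ncapg and Ncaph, specific to condensin I, had ratios of 3.62 and 2.04, and Smc2 and Smc4, shared by both condensins, had 1.68 and 1.38.

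Per length, the set spanned a wide range. Mean CPM per kilobase of merged exons, with GENCODE M21 lengths, was highest in Cdc25b (14.2), Smc4 (14.0), Cdc20 (13.6) and Mki67 (10.6) and lowest in Ncapg (1.01), Cdc25c (1.05) and Kif15 (1.07). Exons of 14 members share bases with another annotated gene, and in 7 of them at least 10% of the exon length is shared. The largest shares were in Kif20a (29.3%, with Cdc23) and Ube2c (22.8%, with Tnnc2, a troponin gene of skeletal muscle). The kit does not mark strand, so reads in those stretches cannot be assigned to either gene.

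ATR mD/mD 3 stood above the ATR WT libraries of like hair level. It was the highest of the 6 libraries in 45 of 46 genes (27.5% of all genes), the exception being Cdc25b. The same 45 genes lay above both ATR WT 2 and ATR WT 3, against 38.6% of all genes, and the summed CPM of the set was 1.60 times the mean of those libraries. At low hair level the libraries lay close together. ATR mD/mD 1 and 2 were both above ATR WT 1 in 8 of 46 genes (38.9% of all genes) and both below it in 19 (37.5% of all genes), and their mean summed CPM was 0.964 times that of ATR WT 1. The median difference in log2 CPM between ATR mD/mD and ATR WT libraries was 0.71 at high and -0.03 at low hair level. Each of these comparisons has 1 library on a side, and the difference between them was not tested.

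**Figure D2:**
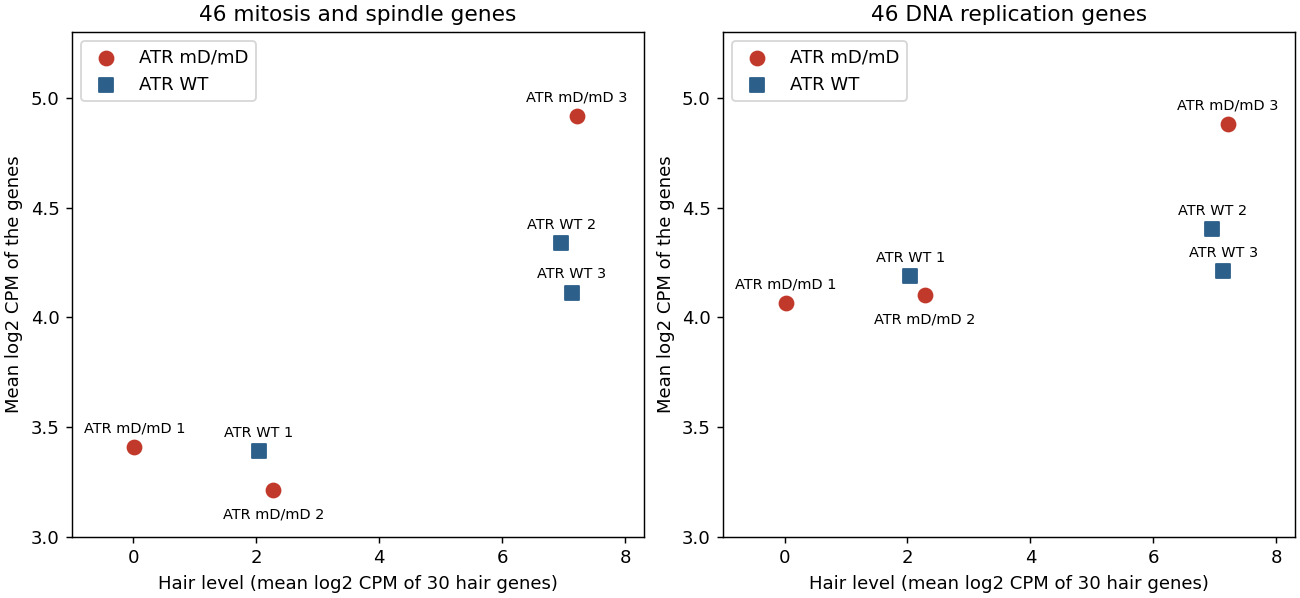
Mean log2 CPM of the 46 mitosis and spindle genes (left) and of 46 DNA replication genes (right) against the hair level of each library; circles are ATR mD/mD libraries and squares ATR WT libraries. ATR mD/mD 3, at 4.92 on the left, lies above ATR WT 2 and ATR WT 3, at 4.34 and 4.11, and the libraries of low hair level lie between 3.21 and 3.41.

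The difference between hair levels was therefore wider within ATR mD/mD than within ATR WT in 45 of 46 genes, against 47.8% of all genes. Its median was 1.77 in ATR mD/mD (library 3 against libraries 1 and 2) and 0.84 in ATR WT (libraries 2 and 3 against library 1). Every gene except Cdc25b was higher at high hair level within both genotypes. Bub1 had the largest difference within ATR mD/mD, 2.55, and Ncapg the largest within ATR WT, 1.65. The wider difference within ATR mD/mD was not particular to the set. It was seen in 28 of the 30 hair genes that define the hair level (93.3%), with medians of 7.27 and 5.44. Further mitotic genes had it in 56 of 60 (93.3%), DNA replication genes in 45 of 46 (97.8%) and melanocyte genes in 12 of 15 (80%). Cohesin and anaphase-promoting complex genes, at 14 of 26 (53.8%), lay nearer to all genes.

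**Figure D3:**
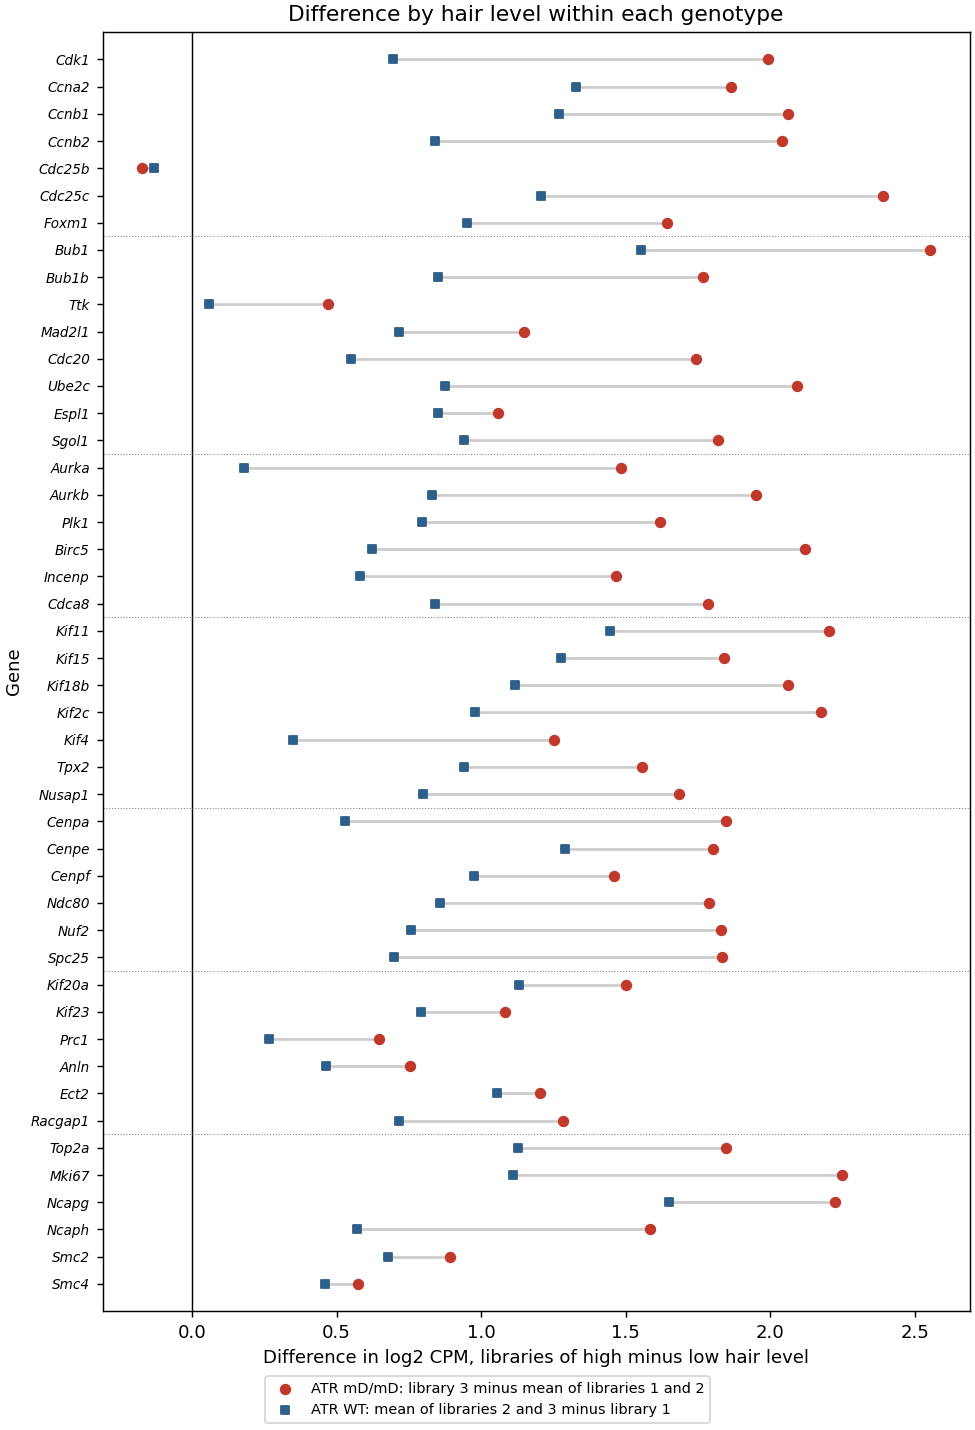
Difference in log2 CPM between libraries of high and low hair level for each of the 46 genes, within ATR mD/mD (circles) and within ATR WT (squares); dotted lines part the role classes. All genes but Cdc25b lie right of 0 in both genotypes, and all but Cdc25b have the circle right of the square.

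Other cell cycle genes followed unequally. Of 60 further mitotic genes not in the set, 50 separated with the high libraries above the low ones (83.3%), with median differences between hair levels of 1.39 within ATR mD/mD and 0.66 within ATR WT. Ncapd2, another condensin gene, was at 28.8, 27.0 and 80.3 CPM in ATR mD/mD 1, 2 and 3, against 30.1, 52.6 and 45.2 CPM in ATR WT 1, 2 and 3. Of 46 DNA replication genes, 14 separated (30.4%). Their median differences were 0.70 within ATR mD/mD and -0.0051 within ATR WT, and single genes ran from -0.14 to 1.37 over all libraries. All 46 were higher in ATR mD/mD 3 than in ATR WT 2 and ATR WT 3, against 38.6% of all genes. The replication clamp gene Pcna was at 135, 118 and 199 CPM in ATR mD/mD 1, 2 and 3, against 148, 154 and 138 CPM in ATR WT 1, 2 and 3. Cohesin and anaphase-promoting complex genes act in mitosis but are made throughout the cycle. Their list, which also holds the checkpoint genes Bub3 and Mad1l1, separated in 8 of 26 genes (30.8%), with medians of 0.22 and 0.15. The list of cell cycle inhibitors and pocket proteins also holds E2f4, E2f5, Tfdp1, Lin9, Lin37, Lin52 and Lin54. It separated upward in 6 of 17 genes (35.3%) and downward in 1, against 19.6% and 17.1% of all genes. No test of the differences between these lists was run.

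**Figure D4:**
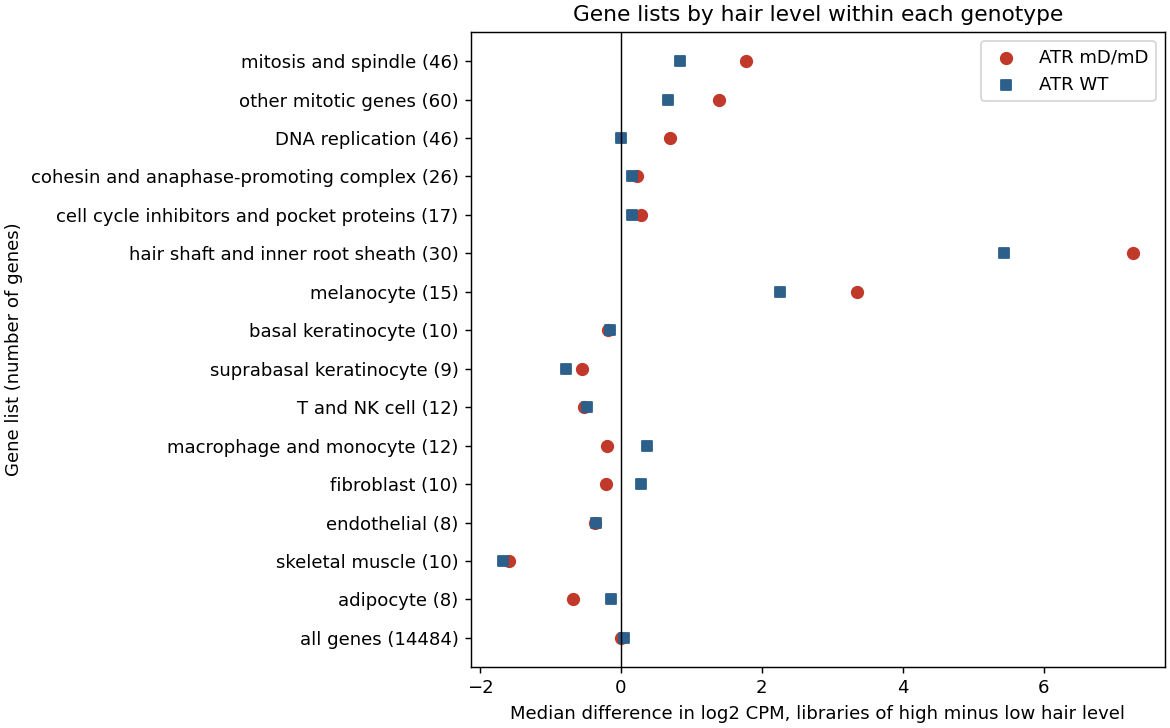
Median difference in log2 CPM between libraries of high and low hair level for each gene list (number of genes in brackets; B and plasma cell genes, with 4 measured, are not drawn), within ATR mD/mD (circles) and within ATR WT (squares). The mitosis and spindle genes lie at 1.77 and 0.84, the DNA replication genes at 0.70 and -0.0051, and all genes near 0.

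Markers of some other cell types moved with the hair level as well. Of 15 melanocyte genes, all measured, 14 separated with high above low, and their summed CPM was 179, 199 and 1077 in ATR mD/mD 1, 2 and 3, against 238, 1043 and 729.5 in ATR WT 1, 2 and 3. Skeletal muscle genes ran the other way in 10 of 10, with every library of high hair level below every library of low hair level, as in 17.1% of all genes, and with sums of 26414, 26601 and 8804 CPM, against 41652, 15709 and 9753 CPM. Basal keratinocyte markers, the defining genes of skin epidermis, were all present, at sums of 13262 to 14506 CPM in ATR mD/mD and 10180 to 14840 CPM in ATR WT, and separated upward in 0 and downward in 4 of 10 genes. Suprabasal keratinocyte genes (9 of 10 listed) separated downward in 6 of 9 and upward in 1. Their sums were 13342, 16916 and 8364 CPM in ATR mD/mD 1, 2 and 3, against 17483, 8672 and 8447 CPM in ATR WT 1, 2 and 3, lower in the libraries of high hair level. Sums of macrophage and monocyte genes (12 of 12) were 459 to 631 and 422 to 598 CPM, of T and NK cell genes (12 of 14) 185 to 273 and 238 to 283 CPM, and of B and plasma cell genes (4 of 8) 5.9 to 23.3 and 13.1 to 76.4 CPM, for ATR mD/mD and ATR WT in turn. Most of each T and NK cell sum was Thy1, which is also on the fibroblast list. Thy1 was at 129 to 168 CPM in ATR mD/mD and 157 to 206 CPM in ATR WT. Of the T and NK cell genes, 6 of 12 separated downward and 0 upward. Of the macrophage and monocyte genes, 3 of 12 separated upward (25%), near the 19.6% of all genes. Fibroblast genes (10 of 10) separated in neither direction, but ATR mD/mD 1 stood apart, with sums of 7638, 16688 and 16694 CPM in ATR mD/mD 1, 2 and 3, against 18095, 16475 and 14396 CPM in ATR WT 1, 2 and 3. Endothelial genes (8 of 8) separated downward in 7 and adipocyte genes (8 of 8) in 3, with sums of 301 to 428 and 4090 to 5185 CPM in ATR mD/mD and of 304 to 413 and 3549 to 5005 CPM in ATR WT. Of the listed markers present in the count table, Dsg4, a hair desmosome gene, alone had a library with no count. The part of these cell types in the mitotic levels was not tested.

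Between genotypes no mitotic gene passed the test. With edgeR's quasi-likelihood test and Benjamini-Hochberg adjustment over 14484 genes, 0 of 46 members had an adjusted p under 0.05, against 7 of all genes (0.0483%). At an unadjusted p under 0.05, 0 members passed too, against 1.66% of all genes, and the lowest adjusted p of a member was 0.9999. DESeq2, limma-voom and the authors' deposited table called 0 members as well, with 39 (0.269%), 7 (0.0483%) and 22 calls over all genes. In none of the 46 genes did the groups stand apart, against 4.84% of all genes. The median log2 fold change of ATR mD/mD over ATR WT was 0.06 over the set and 0.01 over all genes, with 37 genes above 0 (52% of all genes) and 9 below, and single genes ran from -0.12 (Smc2) to 0.42 (Cdc25c). Standard errors (SE) had a median of 0.548, well above most of these estimates.

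Mki67 averaged 112 ± 107 CPM in ATR mD/mD and 101 ± 38.8 CPM in ATR WT (SD, n = 3 each), which edgeR put at a log2 fold change of 0.14 with an SE of 0.68 and an adjusted p of 0.9999. The least variable genes gave the tightest estimates. Cdc25b averaged 54.2 ± 5.89 CPM in ATR mD/mD and 51.7 ± 3.00 CPM in ATR WT (SD, n = 3 each), a log2 fold change of 0.07 (SE 0.123). Ttk, with the smallest unadjusted p of the set (0.257), averaged 19.8 ± 4.11 CPM in ATR mD/mD and 16.9 ± 0.528 CPM in ATR WT (SD, n = 3 each), which edgeR put at a log2 fold change of 0.22 with an SE of 0.180 and an adjusted p of 0.9999. The direction over the set rested on ATR mD/mD 3. Without it, 44 of 46 estimates were below 0, the median was -0.73, and there were 10 genes at an unadjusted p under 0.05 (7.01% of all genes) and 0 past the adjusted threshold. Without ATR WT 1 the median was -0.15. It was 0.35 without ATR mD/mD 2, where 0 members had an unadjusted p under 0.05 (1.43% of all genes), and 0.28 without ATR mD/mD 1. Leaving out ATR WT 2 gave 0.28, and leaving out ATR WT 3 gave 0.12. With limma-voom, which averages on the log scale, 40 of the 46 were below 0, with a median of -0.14.

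With the hair level in the fit, all 46 genes were estimated higher in ATR mD/mD, against 51.6% of all genes, with a median log2 fold change of 0.39 and a range of 0.02 (Cdc25b) to 0.80 (Cdc25c). The SE fell to a median of 0.257. Still 0 of 46 passed the adjusted threshold (0.069% of all genes), the lowest adjusted p being 0.99 (edgeR), and 0 passed with DESeq2 (0.435% of all genes). At an unadjusted p under 0.05, 2 members passed, both higher in ATR mD/mD, against 4.43% of all genes in either direction and 1.72% higher in ATR mD/mD. These were Kif23, a motor of the spindle midzone, with a log2 fold change of 0.38 (SE 0.157, unadjusted p = 0.0464, edgeR fit over all genes), and Cdc25c, with 0.80 (SE 0.328, unadjusted p = 0.0472, edgeR fit over all genes). Kif23 was named after its values were seen. No member had an unadjusted p under 0.05 in this fit when the hair level came from keratins alone, or without ATR mD/mD 1, ATR WT 2 or ATR WT 3. Without ATR mD/mD 3 the median was -0.01, with 22 genes above 0, 24 below and 0 at an unadjusted p under 0.05 (7.87% of all genes). Without ATR mD/mD 2 it was 0.59, with 36 genes at an unadjusted p under 0.05 (7.88% of all genes), 0 past the adjusted threshold and a lowest adjusted p of 0.546 (edgeR). Without ATR mD/mD 1, ATR WT 1, ATR WT 2 or ATR WT 3 the median was 0.28, 0.54, 0.41 and 0.30. The higher estimates thus rested on ATR mD/mD 3, the only ATR mD/mD library at high hair level.

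**Figure D5:**
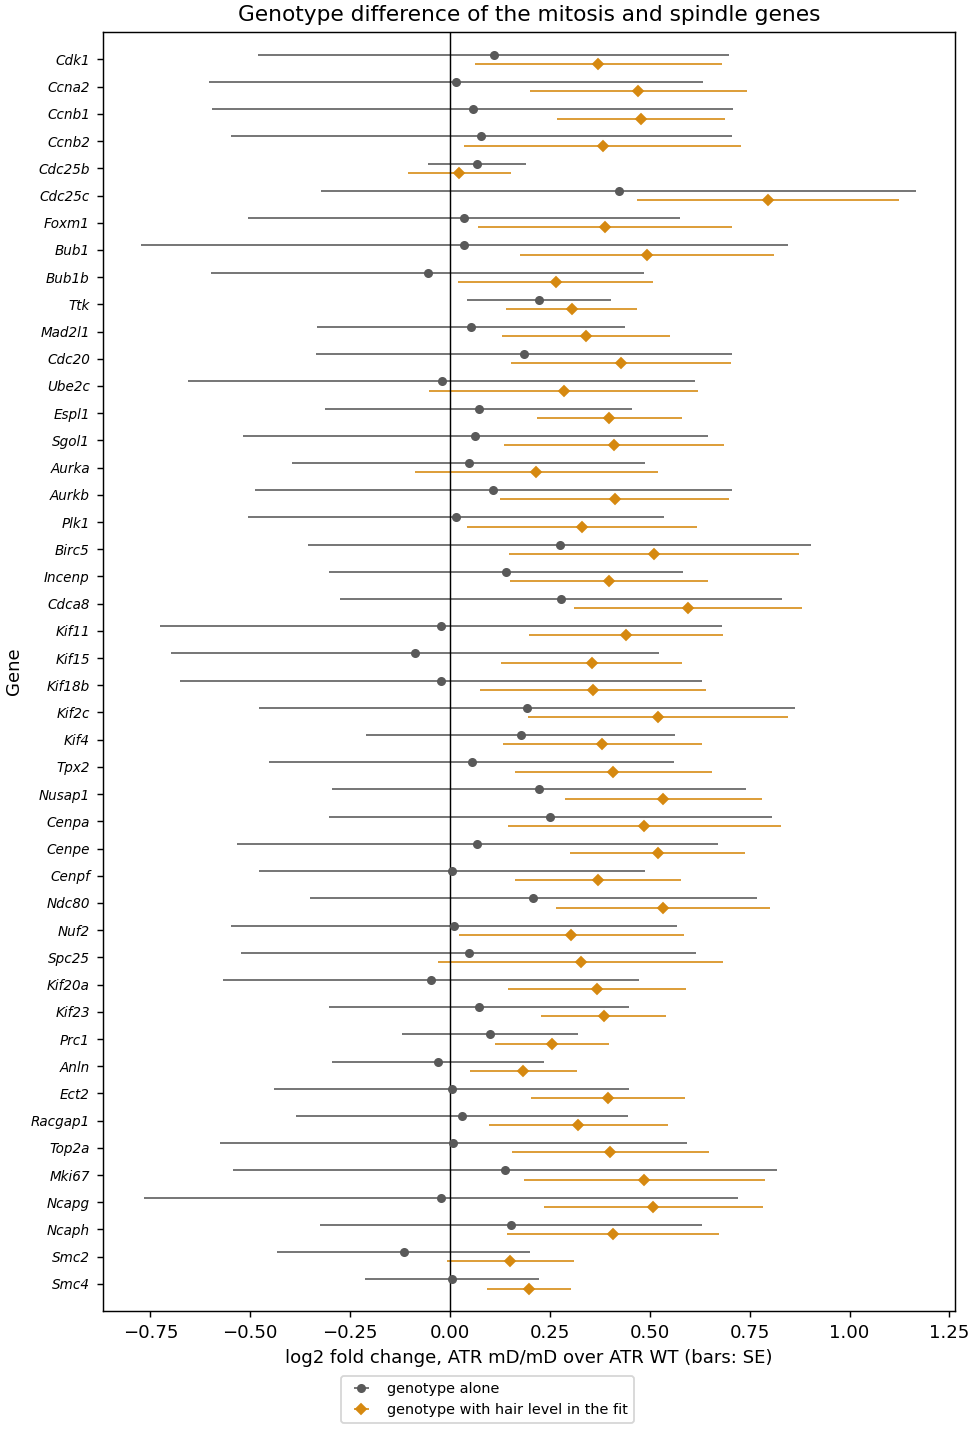
log2 fold change of ATR mD/mD over ATR WT for the 46 genes, with bars of 1 SE, from the fit with genotype alone (circles) and with the hair level added (diamonds). With genotype alone the points scatter around a median of 0.06 with wide bars; with the hair level all 46 lie right of 0, at a median of 0.39, and 0 pass the adjusted threshold in either fit.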

How the data were processed

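Messenger RNA of tissue labelled as skin was measured by RNA sequencing in 3 ATR mD/mD and 3 ATR WT libraries. These were made with a TruSeq RNA v2 kit from oligo dT selected RNA, per the labels' protocols. FastQC, TopHat2 2.0.12, edgeR and build mm10 are named in the submitters' processing notes; how reads were counted, with which annotation and which low-count filter, is not given in the sources used here. Read counts were deposited as whole numbers, 1 column per library. The same deposited table holds the authors' own comparison, as a log2 fold change and average log2 CPM and as a raw and adjusted p-value, per the file headers. Of 14486 rows, 2 name no gene; they held 4.93% to 5.72% of the listed counts and were left out.

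TMM-scaled counts went into the quasi-likelihood test of edgeR 4.0.16 (R 4.3.3) over 14484 genes with Benjamini-Hochberg adjustment, with genotype alone and with the hair level added. An SE was obtained by dividing the size of a log2 fold change by the root of its F statistic. filterByExpr and a minimum of 1 CPM in 3 samples kept all genes. Levels are TMM-scaled CPM, and log2 CPM has a prior count of 2. Alternatives used DESeq2 1.42.0, limma-voom (limma 3.58.1), RLE size factors, the replicate number as a block, a hair level from 20 keratins, and each library left out. The fits were first run on simulated data with 200 genes changed. Those data had the same dispersion for every gene and no difference by hair level. They therefore do not show how the fits perform at the spread of these libraries. No pair of libraries in a group agreed within sampling noise (chi-square per degree of freedom at least 55.3).

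The members, lists, role classes and the hair covariate were chosen with earlier results of these data known. Values in every library are given for the pair of genes with the most counts in each of 7 role classes, for genes past the threshold, for the 2 widest and 2 flattest genes and for the 3 with the smallest p. Aurka was added after its values were seen. Gene positions and exon lengths are from GENCODE M21, of the same build. The genes Ccna2, Cdc25c, Foxm1, Aurkb, Incenp, Tpx2, Kif20a and Smc4 have no entry in the promoter table.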

Additional observations from a re-analysis of the deposited data

How the results depend on the processing

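No member was called under any alternative run. RLE size factors, both filter settings and DESeq2 left the median log2 fold change over the 46 genes at 0.06, the replicate block gave -0.10 and limma-voom -0.14; with 1 library left out it ran from -0.73 to 0.35. With the hair level in the fit, RLE size factors, no filter, DESeq2 and a hair level from keratins alone left it at 0.39, and leaving out 1 library gave -0.013 to 0.59. Genes that separated by hair level numbered 43 with RLE size factors and 43 to 44 with 1 library left out, and their median difference over the set was 1.17 with RLE and ran from 0.92 to 1.38.

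Of the 17 genes chosen by rule to be given in every library, which leave out Aurka, Ttk kept its direction between genotypes under every alternative run. The others turned under at least 1, and the cause of each reversal was not tested. Under limma-voom, log2 fold changes turned to -0.21 for Cdk1, -0.048 for Cdc20, -0.040 for Incenp, -0.082 for Birc5, -0.11 for Tpx2, -0.026 for Cenpa, -0.14 for Cenpf, -0.094 for Racgap1, -0.19 for Mki67, -0.19 for Top2a, -0.0031 for Cdc25c and -0.41 for Bub1. With the replicate block they turned to -0.18 for Cdk1, -0.033 for Cdc20, -0.010 for Incenp, -0.053 for Birc5, -0.066 for Tpx2, -0.095 for Cenpf, -0.061 for Racgap1, -0.19 for Mki67, -0.18 for Top2a and -0.31 for Bub1. With the hair level, Ube2c and Kif11 turned to 0.28 and 0.44. With 1 library left out, the range was -0.024 to 0.13 for Cdc25b, -0.88 to 0.46 for Cdk1, -0.65 to 0.48 for Cdc20, -1.07 to 0.36 for Ube2c, -0.52 to 0.43 for Incenp, -0.80 to 0.65 for Birc5, -0.66 to 0.35 for Tpx2, -1.16 to 0.34 for Kif11, -0.64 to 0.60 for Cenpa, -0.66 to 0.27 for Cenpf, -0.15 to 0.22 for Prc1, -0.53 to 0.29 for Racgap1, -1.02 to 0.52 for Mki67, -0.89 to 0.34 for Top2a, -0.86 to 0.81 for Cdc25c and -1.37 to 0.44 for Bub1; it was 0.05 to 0.35 for Ttk. With the hair level, Cdc25b ran from -0.050 to 0.088, Cdc25c from 0.11 to 1.04 and Kif23 from 0.25 to 0.47.

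Libraries of ATR mD/mD and ATR WT share replicate numbers in the labels, but the deviations of same-numbered libraries from their group means correlated at 0.63, -0.51 and 0.57 over genes for numbers 1, 2 and 3, so the numbers were not taken as pairs. The block changed no call among the members. Each group had 3 libraries, with 1 or 2 of each genotype at either hair level, and the lowest count of a member in a library was 84.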

Other observations

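Within the set, the 31 genes with a CHR in the promoter had a median difference in log2 CPM between high and low hair level of 1.14, and the 7 genes with a promoter entry and no CHR had 1.22. Those 7 were Ccnb1, Mad2l1, Birc5, Nusap1, Cenpe, Nuf2 and Ncaph. Of 51 promoters of further mitotic genes, 31 held a CHR (60.8%), and of 22 promoters of cohesin and anaphase-promoting complex genes, 4 did (18.2%). The lists of other cell types had few promoters. Leaving out B and plasma cell genes, with 1 promoter, they ran from 0 of 7 (skeletal muscle) to 3 of 6 (suprabasal keratinocyte).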
